A study of Mus musculus with 4 samples.

Results

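Genes that rearrange antigen receptors and set the T lineage in the thymus were read on 4 arrays of sorted mouse cells. They were 10 genes listed by name, Rag1, Rag2, Dntt, Ptcra, Satb1, Tcf7, Lef1, Bcl11b, Itm2a and Aqp11, of which 8 had a row among the 19504 genes of the table. Rag1 and Tcf7 were not analysed here. All 8 had 1 row each. The genes were chosen with values of these arrays known, so their levels and differences are a description and no test was made of them.

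The cells are labelled as group 3 innate lymphoid cells (ILC3s), sorted as lineage-negative, high for CD90 and low for CD45, and the markers of 1 array go against that label, as given below. ILC3s are lymphocytes of barrier tissues that carry no rearranged antigen receptor. The 4 groups were circZbtb20+/+ mice (the circZbtb20 wild type), circZbtb20-/- mice, which lack a circular RNA of the Zbtb20 gene, Nr4a1+/+ mice (the Nr4a1 wild type) and Nr4a1-/- mice, labelled as deficient in an orphan nuclear receptor. Each group had 1 array, so the values have no replicate error, and the labels used here give neither the tissue, the age, the lineage antibodies, the number of animals nor how the alleles were made. Values are log2 expression as deposited, differences are log2 differences, and their relation to RNA abundance was not tested.

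T cells are made in the thymus, where precursors cut and rejoin the segments of their receptor genes. The RAG1 and RAG2 proteins form the recombinase that cuts the DNA, the enzyme encoded by Dntt adds bases without a template at the joints, and the product of Ptcra pairs with the first rearranged receptor chain. TCF-1 (Tcf7), LEF-1 (Lef1) and BCL11B are transcription factors that set and keep T cell identity, and SATB1 organises chromatin and is abundant in thymocytes. TCF-1 also acts in precursors of innate lymphoid cells, so not every gene of this group is foreign to that lineage.

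Of the 8 measured genes, 8 were higher in the Nr4a1 knockout than in its wild type, by 3.81 to 12.58, with a median of 10.04. In the circZbtb20 knockout 7 were within 1 log2 unit of its wild type, and Satb1 was lower, with a difference of -1.41. Between the wild types 7 were within 1 unit and Bcl11b differed by 1.16. A gene counted as higher or lower here when it differed by at least 1 log2 unit, which is 2-fold on the deposited scale, and its higher value reached the median of that array over all rows. These medians lay between 4.34, in the Nr4a1 knockout, and 4.51, in its wild type. In the Nr4a1 comparison 11197 genes passed this filter, and the rule called 52.7% of them, 31.9% as higher and 20.8% as lower. In the circZbtb20 comparison it called 46.7% of 11122 genes, 27.3% as higher and 19.4% as lower. Between the wild types it called 15.2% of 10698 genes, 8.48% as higher and 6.77% as lower. The genes were chosen on the Nr4a1 comparison among others, so nothing is read from their count against its background.

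**Figure D1:**
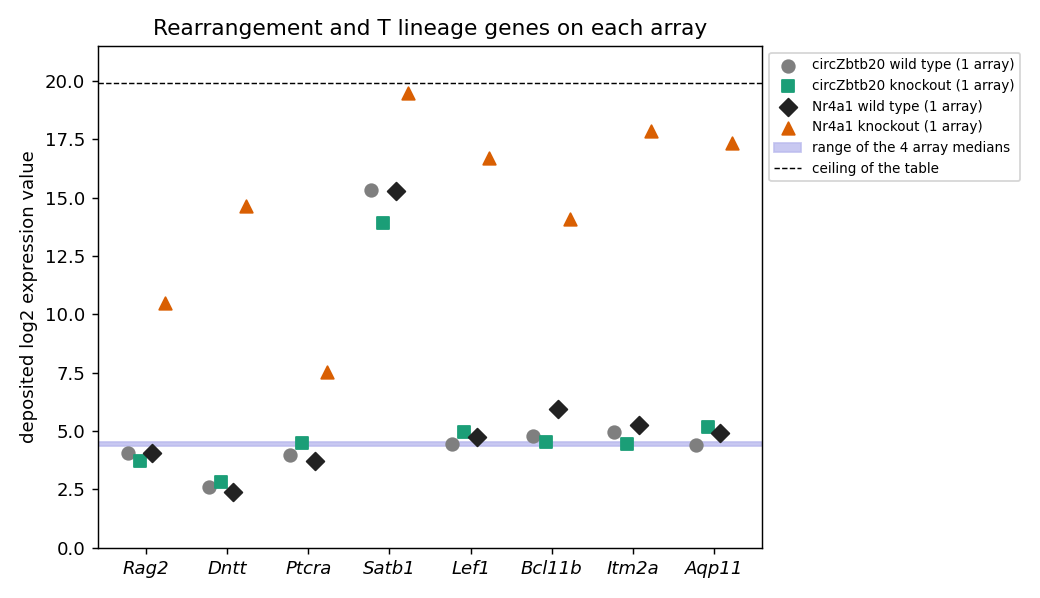
Deposited log2 expression value (y axis) of each of the 8 measured genes (x axis), with 1 point for each of the 4 arrays, the range of the 4 array medians as a band and the ceiling of 19.93 as a dashed line. The triangles of the Nr4a1 knockout lie above the other 3 points of every gene, and Satb1 is the gene whose other points also lie far above the band.

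The cell type label was checked on each array against marker genes. On the array labelled Nr4a1 knockout, named by that label throughout, the ILC3 markers Il23r, Il1r1 and Kit stood at 4.73, 5.35 and 5.48, near the array median of 4.34. On the other arrays Il23r was at 15.43 to 18.29, Il1r1 at 13.89 to 15.27 and Kit at 18.07 to 19.67. Those arrays were not free of markers of related cells. The ILC2 markers had median levels of 9.62 and 9.98 in the circZbtb20 and Nr4a1 wild types, and 4.44 in the circZbtb20 knockout. The NK cell and ILC1 markers, which share Ncr1 with the ILC3 markers, had 8.74, 10.14 and 6.94 on the same arrays. The T cell receptor genes Cd3e, Cd3d and Cd3g stood at 18.92, 15.79 and 17.57 on the Nr4a1 knockout array, above a range of 4.72 to 8.88 on the others. Il22, the signature cytokine of ILC3s, was nevertheless at the ceiling of 19.93 on that array. The array labelled as Nr4a1 knockout therefore lacks defining ILC3 markers at the level of the other arrays and holds T cell markers, and its genotype and its cell content cannot be told apart. Nr4a1 itself stood at 11.63 there, equal to the 95th percentile of that array, against 18.11 in its wild type and 19.93 and 15.98 in the wild type and knockout of circZbtb20. Which part of the gene the probes cover is not known here, so this value checks the genotype only in part. In such bulk samples more cells of a type and more RNA per cell cannot be told apart either.

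The genes of rearrangement come first. Rag2 encodes the regulatory partner of the recombinase, which reads histone marks on open receptor loci. Rag2 stood at 4.06 in the wild type and 3.71 in the knockout of circZbtb20, and at 4.04 in the wild type and 10.50 in the knockout of Nr4a1. It was under the array median on 3 arrays and far over it on the fourth. Its difference was 6.46 in the Nr4a1 comparison, -0.35 in the circZbtb20 comparison and -0.02 between the wild types.

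Dntt encodes terminal deoxynucleotidyl transferase, which diversifies receptor joints in lymphocyte precursors and is hardly used by other cells. Its values were 2.58, 2.82 and 2.40 in the circZbtb20 wild type, circZbtb20 knockout and Nr4a1 wild type, while the Nr4a1 knockout was at 14.64. The first 3 lie close to the lowest value of the whole table, 2.13. The Nr4a1 difference was 12.24, taken against a value in the background range, so its exact size and its rank are poorly measured. With values under an array median raised to that median, an alternative added after the data were seen, the difference was 10.13. Its rank from the highest among the genes past the filter was 5 as deposited and 10 with the raised values. In the circZbtb20 comparison Dntt differed by 0.24, with both values below their array medians.

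Ptcra encodes pre-T alpha, the surrogate chain that lets a thymocyte test its rearranged beta chain. It was at 3.98 in the wild type and 4.48 in the knockout of circZbtb20, and at 3.70 in the wild type and 7.51 in the knockout of Nr4a1. Its Nr4a1 difference of 3.81 was the lowest of the 8 genes, and it was 3.0 with low values raised to the median. The gene differed by 0.50 in the circZbtb20 comparison and by -0.28 between the wild types.

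Among the transcription factors, Satb1 differed from the rest because it was high on every array. Satb1 stood at 15.32 in the wild type and 13.91 in the knockout of circZbtb20, and at 15.28 in the wild type and 19.49 in the knockout of Nr4a1. The wild types differed by -0.04, so the lower value of the circZbtb20 knockout held against both, at -1.41 and -1.37. This was the only call among the 8 genes in that comparison, where 19.4% of all genes past the filter were called lower. The Nr4a1 difference was 4.21, with the knockout value 0.44 under the ceiling of the table.

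Lef1, which encodes a DNA-binding partner of beta-catenin that is strong in thymocytes and naive T cells, was at 4.46, 4.97 and 4.76 in the circZbtb20 wild type, circZbtb20 knockout and Nr4a1 wild type. It was at 16.71 in the Nr4a1 knockout. The difference was 11.95, at rank 6, or 5 with low values raised, and the next highest array lay 11.74 below. The Lef1 value of the Nr4a1 wild type lay little above that array's median of 4.51. Raising low values could therefore not change the difference, and its exact size is poorly measured. The same holds for Itm2a and Aqp11, at 5.27 and 4.91 in that wild type. Lef1 differed by 0.51 in the circZbtb20 comparison and by 0.30 between the wild types.

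Bcl11b encodes the zinc finger factor that closes other fates at T lineage commitment, and ILC2s use it too. It was at 4.77 in the wild type and 4.51 in the knockout of circZbtb20, and at 5.93 in the wild type and 14.07 in the knockout of Nr4a1. Here the wild types were apart, by 1.16, the one call among the 8 genes between them. The Nr4a1 difference was 8.14 against the paired wild type and 9.30 against the other. The circZbtb20 difference was -0.26 against its own wild type but -1.42 against the other, which would count as lower. Marker lists were also read between the wild types, where 8.48% of all genes past the filter were called higher and 6.77% lower. Among 6 ILC2 markers the Nr4a1 wild type had 4 called higher against 2 called lower (list median 1.31). For the 17 genes of the T cell receptor complex and selection the calls were 7 against 1 (list median 0.49). They were 3 against 0 for 12 macrophage and dendritic cell markers (list median 0.27) and for 14 B cell and B progenitor markers (0.26). The 13 thymic epithelial and stromal markers had 2 against 1 and a list median of 0.01. The part of any of these lists in the Bcl11b difference was not tested.

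The remaining genes are a membrane protein and a channel. Itm2a encodes a type II membrane protein that rises at thymocyte selection. It was at 4.96, 4.46 and 5.27 in the circZbtb20 wild type, circZbtb20 knockout and Nr4a1 wild type, while the Nr4a1 knockout was at 17.85. Its Nr4a1 difference of 12.58 was the highest of the 8 genes and stood at rank 2 among the genes past the filter. The circZbtb20 difference was -0.50.

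Aqp11 encodes an intracellular aquaporin, known mainly from kidney and liver. Its levels were 4.41 in the wild type and 5.16 in the knockout of circZbtb20, and 4.91 in the wild type and 17.36 in the knockout of Nr4a1. The Nr4a1 difference was 12.45, at rank 4, and the circZbtb20 difference was 0.75, the highest of the 8 in that comparison but under the 2-fold size. Bcl11b, Rag2, Satb1 and Ptcra had ranks 22, 63, 248 and 350 in the Nr4a1 comparison, and 22, 76, 234 and 644 with low values raised.

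**Figure D2:**
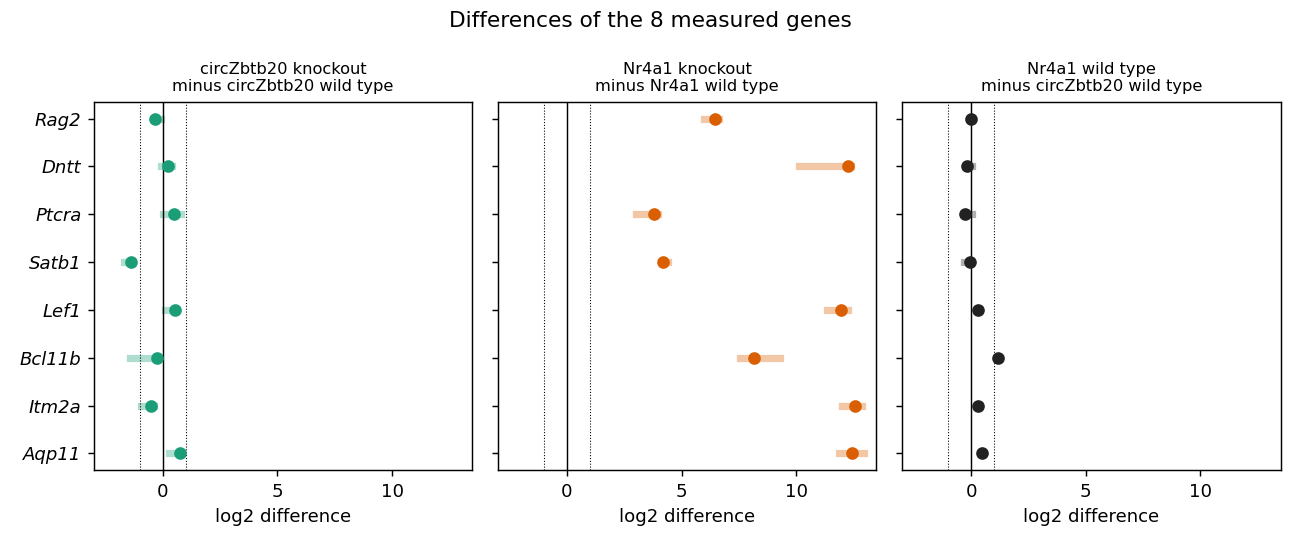
Log2 difference (x axis) of the 8 measured genes (y axis) in the 3 comparisons, with a point for the deposited values, a bar for the range over the alternative settings and dotted lines at 1 and -1. The Nr4a1 differences run from 3.81 to 12.58, while those of the other panels run from -1.41 to 1.16.

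Upstream sequences are shown for the 6 genes with the greatest Nr4a1 differences, since these genes were high on the same array. Each is the stretch of 250 bases before the gene's first listed start, from RefSeq on GRCm38.p6, 5′ to 3′ on the gene's strand. Capitals mark matches to the motifs searched.
Itm2a, chrX:107403361-107403610, minus strand: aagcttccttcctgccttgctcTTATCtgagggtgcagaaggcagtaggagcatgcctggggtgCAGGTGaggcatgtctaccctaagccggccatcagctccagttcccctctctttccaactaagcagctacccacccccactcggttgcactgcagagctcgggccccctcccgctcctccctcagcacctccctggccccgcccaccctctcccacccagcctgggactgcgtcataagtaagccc
Aqp11, chr7:97738248-97738497, minus strand: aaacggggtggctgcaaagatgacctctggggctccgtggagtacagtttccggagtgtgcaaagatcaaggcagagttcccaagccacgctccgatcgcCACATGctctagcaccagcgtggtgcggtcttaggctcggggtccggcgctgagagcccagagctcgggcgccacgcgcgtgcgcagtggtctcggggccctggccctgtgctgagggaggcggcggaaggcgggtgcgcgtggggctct
Dntt, chr19:41029025-41029274, plus strand: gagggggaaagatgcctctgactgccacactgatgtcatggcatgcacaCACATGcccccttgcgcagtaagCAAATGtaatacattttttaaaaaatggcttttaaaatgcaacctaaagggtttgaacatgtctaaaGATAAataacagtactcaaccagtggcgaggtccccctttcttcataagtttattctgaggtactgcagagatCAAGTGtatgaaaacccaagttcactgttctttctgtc
Lef1, chr3:131110047-131110296, plus strand: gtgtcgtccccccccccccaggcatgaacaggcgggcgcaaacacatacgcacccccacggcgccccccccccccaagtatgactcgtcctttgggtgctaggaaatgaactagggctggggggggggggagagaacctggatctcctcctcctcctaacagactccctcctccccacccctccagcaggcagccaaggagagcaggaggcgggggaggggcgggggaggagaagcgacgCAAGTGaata
Bcl11b, chr12:108003415-108003664, minus strand: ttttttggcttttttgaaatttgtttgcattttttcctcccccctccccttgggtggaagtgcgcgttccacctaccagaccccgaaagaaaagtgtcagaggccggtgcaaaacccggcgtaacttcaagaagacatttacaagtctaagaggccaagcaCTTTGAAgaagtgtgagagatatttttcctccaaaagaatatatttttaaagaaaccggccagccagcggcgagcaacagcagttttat
Rag2, chr2:101624462-101624711, plus strand: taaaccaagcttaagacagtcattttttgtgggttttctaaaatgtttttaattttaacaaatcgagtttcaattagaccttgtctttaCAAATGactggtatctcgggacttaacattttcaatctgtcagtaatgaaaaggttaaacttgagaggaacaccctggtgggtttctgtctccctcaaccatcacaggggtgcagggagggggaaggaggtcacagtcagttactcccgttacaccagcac

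All 10 listed genes matched the RefSeq promoter table, with 18 windows in all because Lef1, Satb1 and Tcf7 have several starts, some of which overlap. The motifs were searched on both strands: CANNTG, the E-box bound by E proteins, CTTTGAA and CTTTGAT, which TCF-1 and LEF-1 bind, TGTGGT, of RUNX factors, and GATAA, of GATA factors. CTTTGAA and CTTTGAT share their first bases, and an E-box reads as CANNTG on either strand. At least 1 E-box lay in 13 of the 18 windows and in 9 of the 10 genes, where 66.2% of all 32851 windows of this length held one. Dntt and Rag1 had 3 E-boxes each, and Bcl11b had none in its window. CTTTGAA was found in 1 window, that of Bcl11b, against 4.5% of all windows, and CTTTGAT in 0, against 3.2%. TGTGGT was found in 1 window, that of Rag1, against 14.0% of all windows, and GATAA in 4 against 22.6%. GC content ran from 41.2% upstream of Rag2 and 41.6% upstream of Dntt to 67.2% upstream of Aqp11 in the sequences shown, around a median of 52.4% over all windows. The build behind the array rows was not given in the sources used here. These positions are those of RefSeq.

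The partners of the rearrangement reaction were read from a list of 13 genes, of which 12 had a row. In the Nr4a1 knockout 7 were higher and 0 lower, and the median was 1.77. Over all genes past the filter 31.9% were called higher and 20.8% lower, with a median of 0.29. Xrcc6, which encodes the Ku70 subunit that holds broken DNA ends, was at 11.34 against 5.29, a difference of 6.05. Lig4, the ligase of the joining step, was at 9.21 against 3.89, a difference of 5.32. Hmgb1 and Hmgb2, which bend DNA for the recombinase, differed by 2.75 and 2.59, and Xrcc4, the partner of the ligase, by 2.29. Poll and Polm, polymerases related to the Dntt enzyme, were at -0.64 and -0.10 and were not called. In the circZbtb20 knockout 2 of the 12 were higher and 1 lower, beside 27.3% and 19.4% of all genes past the filter. The median was 0.00, and the genes called were Atm, by 1.73, Lig4, by 1.57, and Xrcc6, by -1.19.

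The receptor complex that rearrangement serves was high on the same array. Of 17 measured genes of the T cell receptor complex and thymic selection 16 were higher and 0 lower in the Nr4a1 knockout. The shares over all genes past the filter were 31.9% and 20.8%, and the list's median was 8.37. Cd8b1, a CD8 chain, was at 18.73 against 5.0, Themis, a selection adaptor, differed by 12.48, and Zap70, the receptor-proximal kinase, by 0.30, which was not called. Cd4, at 16.79, and Cd8a, at 17.91, were high together there, and a bulk value does not say whether in the same cells. In the circZbtb20 knockout 6 of the 17 were higher and 4 lower, beside 27.3% and 19.4% of all genes past the filter. The median was 0.19, which turned to -0.14 against the other wild type and to -0.07 under cyclic loess. Between the wild types 7 were higher and 1 lower in the Nr4a1 wild type, beside 8.48% and 6.77% of all genes past the filter. The list's median there was 0.49.

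Lists for the stages of thymocyte development differed among themselves in the Nr4a1 knockout. Of 18 genes of the CD4 and CD8 double-positive stage 14 were higher and 1 lower. The shares over all genes past the filter were 31.9% and 20.8%, and the list's median was 3.29. Myb, a factor needed by double-positive cells, was at 15.54 against 7.33, and Ccr9, the receptor for the thymic chemokine CCL25, at 18.84 against 11.16. Ly6d differed by 7.93, Endou by 7.27 and Arpp21 by 7.03. The E protein genes Tcf12 and Tcf3 differed by 1.86 and 2.49. Bcl2l1, a survival gene, was lower by a difference of -1.62.

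Of 16 early and double-negative stage genes 2 were higher and 9 lower, beside 31.9% and 20.8% of all genes past the filter. The list's median was -2.22, or -1.47 when set against the circZbtb20 wild type. Kit, at 5.48 against 18.36, and Il7r, at 13.40 against 16.38, belong to this list and to the ILC3 markers alike. Il2ra, the IL-2 receptor chain of early thymocytes and of activated lymphocytes, differed by -7.50, Cd44 by -6.28 and Spi1, which encodes PU.1, by -3.91. Cd24a, high on immature thymocytes, was higher by 3.78, and Notch1 by 1.42.

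Of 12 single-positive and naive stage genes 2 were higher and 4 lower, and the median was -0.43. Over all genes past the filter the rule called 31.9% higher and 20.8% lower. The list's median level was nevertheless 7.59 in the Nr4a1 knockout and 6.86 in its wild type, so these differences do not mean low levels. Runx3, a factor of CD8 T cells and of ILCs, differed by -5.73, Ccr7 by -2.78 and Foxo1 by -2.49, while Actn1 differed by 4.99 and Tnfrsf4 by 3.18. Ccr7 was high on both arrays, at 11.70 against 14.48, and the 95th percentile of the Nr4a1 knockout array was 11.63. Klf2 and S1pr1, which let mature T cells leave the thymus, were at 5.08 and 5.65 and differed by -0.89 and -0.25, neither of which was called. In the circZbtb20 comparison the rule called 27.3% of all genes past the filter higher and 19.4% lower. The double-positive list had 5 higher and 3 lower of 18 genes in that knockout, near that background, so nothing is read from its count. It held Bcl6 at -3.62, Tcf12 at -3.17 and Tox at 2.59. The early list had 3 higher and 6 lower there, with Spi1 at -5.21 and Dtx1 at -3.71, and the naive list 1 higher and 5 lower, with Runx3 at 1.69 and Ccr4 at -1.56. The medians of the double-positive, early and naive lists were 3.29, -2.22 and -0.43 in the Nr4a1 comparison, and -0.12, -0.49 and -0.34 in the circZbtb20 comparison. The difference between lists was not tested.

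**Figure D3:**
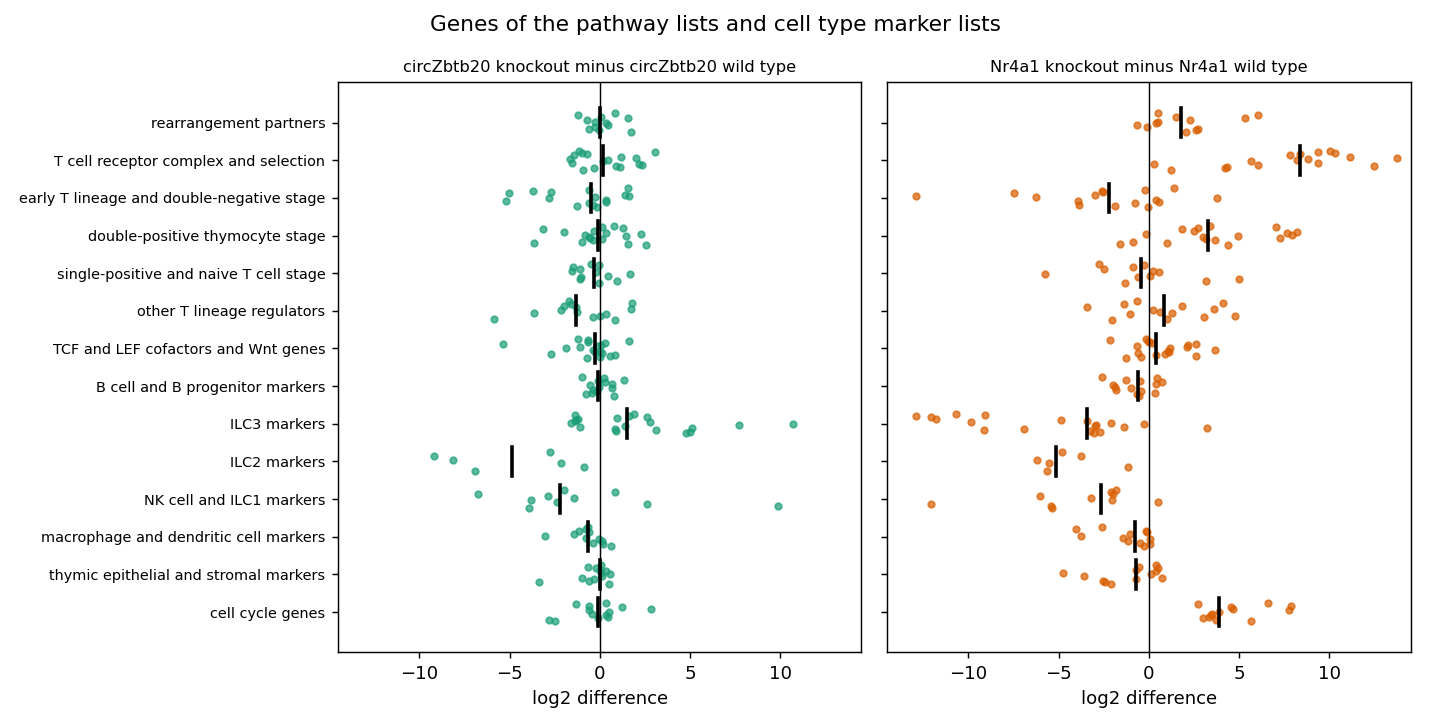
Log2 difference (x axis) of each measured gene of 14 lists (y axis) in the circZbtb20 comparison on the left and the Nr4a1 comparison on the right, with 1 point for each gene and a black bar at the list's median. On the right the T cell receptor, double-positive and cell cycle lists have medians of 8.37, 3.29 and 3.86, and the ILC3 markers have -3.41.

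Other regulators of the T lineage were less uniform. Of 14 measured, 7 were higher and 4 lower in the Nr4a1 knockout, beside 31.9% and 20.8% of all genes past the filter. The list's median was 0.83, and that of all genes past the filter 0.29. Sox4 differed by 4.79, Ikzf1, which encodes Ikaros, by 4.11, Id3, an inhibitor of E proteins, by 3.62 and Cbfb, the partner of RUNX factors, by 3.06. Id2, the E protein inhibitor of innate lymphoid cells, was at 15.48 against 18.89, a difference of -3.41. In the circZbtb20 knockout 2 were higher and 8 lower, beside 27.3% and 19.4% of all genes past the filter. The list's median was -1.30, or -0.85 with low values raised to the array median. The greatest differences of the list were Egr1 at -5.86, Foxp1 at -3.62 and Zeb1 at -2.16, on the array where Satb1 was at -1.41.

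Cofactors of TCF-1 and LEF-1 and Wnt pathway genes did not share the size of the Lef1 difference. Of 19 measured, 18 passed the filter, 8 were higher and 2 lower in the Nr4a1 knockout, and the list's median was 0.38. Over all genes past the filter the rule called 52.7%, with a median of 0.29. The list lay near that background, so nothing is read from its count or from its single genes. Bcl9, a coactivator of beta-catenin, differed by 3.68, Tle5, a short Groucho family protein, by 2.61, Lrp6, a Wnt coreceptor, by 2.60 and Axin1 by 2.18, while the corepressor gene Tle1 differed by -2.18. Axin2, a common Wnt target, was at 6.17 against 6.81 and was not called. In the circZbtb20 knockout 1 was higher and 5 lower, beside 27.3% and 19.4% of all genes past the filter. Tle5 was at 9.65 against 15.04, a difference of -5.39, Tcf7l2 differed by -2.71 and Gsk3b by -1.85.

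Rag2, Dntt and Lef1 are also genes of B cell precursors, so markers of those cells were read beside them. Of 14 measured markers 0 were higher and 5 lower in the Nr4a1 knockout, beside 31.9% and 20.8% of all genes past the filter. The list's median was -0.58, or -1.54 over the 8 markers that passed the filter. That filter looks at the higher of the 2 values, so low genes pass only through the array where they are higher. The more negative median is partly set by this. Their summed log2 level ran from 55.49 in the Nr4a1 knockout to 66.23 in its wild type, with 60.64 and 61.23 in the circZbtb20 wild type and knockout. Cd79a, Cd79b and Ebf1 stood at 4.41, 4.77 and 6.02 in the Nr4a1 knockout, and 3 of the 14 reached the array median there. Precursor genes Vpreb1 and Igll1 were at 4.13 and 3.39, under the median. Apart from that of Ebf1, the lower calls depended on the wild type used. Ebf1 stood at 7.26 on the paired wild-type array and at 7.85 on the other, each more than 1 log2 unit above its 6.02. Cd79a, Vpreb3, Blnk and Igll1 were higher in the Nr4a1 wild type than in the other, by 2.34, 1.28, 1.09 and 0.99. In the circZbtb20 wild type they stood at 4.65, 3.82, 5.08 and 4.29, each within 1 log2 unit of the Nr4a1 knockout. Rearranged receptor and immunoglobulin segments were not analysed here.

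Markers of the labelled cell type were low where the thymocyte genes were high. Of 20 measured ILC3 markers 17 were lower and 1 higher, beside 20.8% and 31.9% of all genes past the filter. The median was -3.41, with a summed log2 level of 139.01, against 237.93 to 279.38 on the other arrays. Kit differed by -12.88, Ncr1 by -12.05 and Rora by -11.79, and the higher one was Ltb, at 3.21. Of 7 precursor genes of innate lymphoid cells 2 were higher and 5 lower, and the median was -3.41: Tox, also a thymocyte gene, differed by 4.38 and Zbtb16 by -4.04. The 6 ILC2 markers had a median of -5.16, which was -3.41 when set against the circZbtb20 wild type, and the 10 NK cell and ILC1 markers one of -2.65. In the circZbtb20 comparison the ILC3 markers had a median of 1.51. Of them 11 were higher and 6 lower, beside 27.3% and 19.4% of all genes past the filter. The ILC2 markers had a median of -4.85 there. The NK cell and ILC1 markers had one of -2.19, which was -1.48 when set against the Nr4a1 wild type.

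Markers of thymic stroma were not among the higher genes. Of 13 thymic epithelial and stromal markers 0 were higher and 5 lower in the Nr4a1 knockout. The shares over all genes past the filter were 31.9% and 20.8%. The list's median was -0.71, or -2.42 over the 7 markers past the filter, some of which passed only through their higher wild-type value. Foxn1, Psmb11 and Prss16, genes of thymic epithelium, stood at 3.27, 3.54 and 3.19, under the array median. The 12 macrophage and dendritic cell markers had 0 higher and 5 lower, and the median was -0.75, and the 3 measured erythroid markers had 0 higher and 1 lower. Of 13 measured cell cycle genes 13 were higher, and the median was 3.86, Mki67 at 13.40 against 6.82 and Ccnb2 at 12.67 against 4.80. In the circZbtb20 comparison 2 of the 13 were higher and 3 lower, beside 27.3% and 19.4% of all genes past the filter.

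Genes with a profile like that of the measured genes were sought among 11609 others. The measure was the Euclidean distance over the 4 arrays to the median profile of the 8 genes, after each profile was centred on its own mean. The nearest was H2ac15 at 0.61, followed by Sh2d1a, an adaptor of SLAM receptors, at 0.81, Il27ra, a cytokine receptor, at 0.91, Cd28 at 1.21, Cd3g at 1.32 and Cd2 at 1.47. The histone genes H2ac8, H2bc12, H1f1 and H2ac10 completed the 10, at 1.55 to 1.67, and such histone genes are near-identical copies that probes may not separate. The 8 genes themselves lay at 1.40 for Bcl11b, 1.43 for Lef1, 1.56 for Dntt, 1.91 for Aqp11, 2.19 for Itm2a, 3.40 for Rag2, 5.13 for Satb1 and 6.14 for Ptcra. The profile is thus that of the genes with greater differences, and 472 other genes were at least as near as Ptcra.

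**Figure D4:**
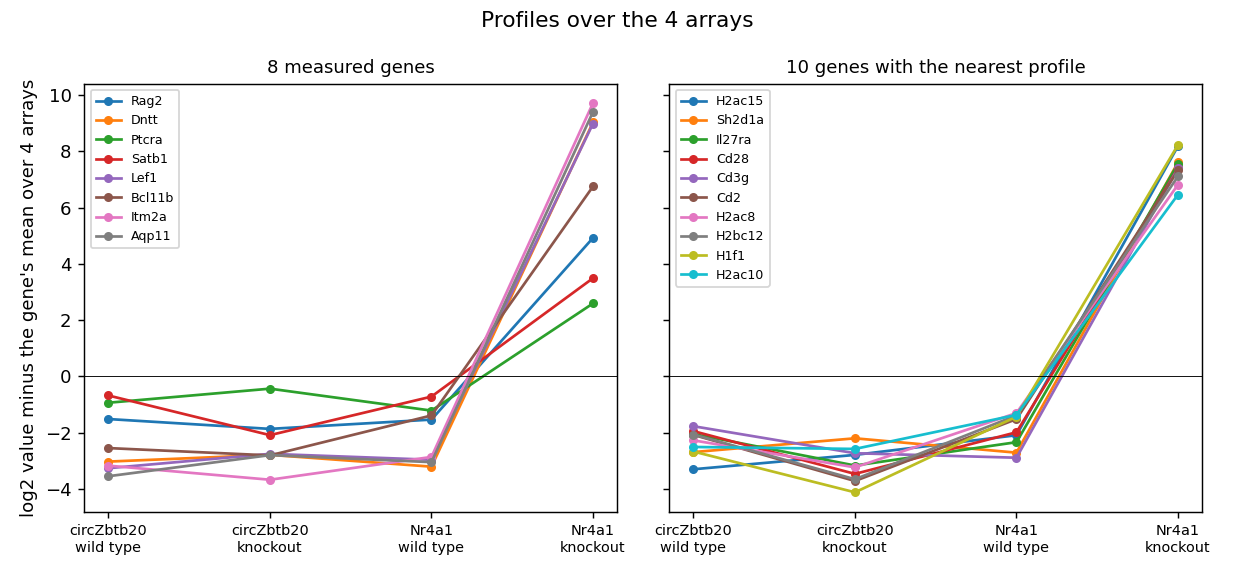
Log2 value minus the gene's own mean (y axis) on the 4 arrays (x axis, whose order has no meaning) for the 8 measured genes on the left and the 10 nearest other genes on the right, with 1 line for each gene. All lines peak at the Nr4a1 knockout, and Ptcra and Satb1 peak lowest among the 8.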

How the data were processed

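Expression was measured in 4 samples, 1 array each. Per the submitters' processing notes the authors made the values with Affymetrix Power Tools and RMA, with versions, settings and build not given in the sources used here. Each deposited value is a log2 expression value with 2 decimals, from 2.13 to a ceiling of 19.93, and a difference from a value at the ceiling is a bound. Quantile steps in RMA hide changes of total RNA.

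Of 22205 rows, 19571 had 1 symbol in the probe table and 2634 had none. The brightest row of a gene was used. Differences were taken in Python 3.11.15 with pandas 2.3.3, and the rule of size was tested on simulated data. The error rate of the rule on these arrays was not tested. No p-value was computed, because each genotype has 1 array.

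The genes, 17 lists and alternatives were chosen with earlier results of these data known. The rule for naming took all listed genes, up to 5 genes of each list with the greatest called Nr4a1 difference and 3 with the greatest circZbtb20 difference, defining markers and the 10 nearest profiles. Not every gene it took is printed, least of all from the marker lists of other cells. Others were named after their values were seen. Alternatives were quantile and cyclic loess normalization (limma 3.58.1), median centring, the mean of a gene's rows, other wild-type references, no filter, a size of 2 log2 units and list medians past the filter. The planned protein comparison was not run.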

Additional observations from a re-analysis of the deposited data

How the results depend on the processing

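The measured genes kept the direction of their Nr4a1 difference under every alternative run, and 8 of 8 stayed higher. The smallest of these differences was 3.81. Dropping the filter, a size of 2 log2 units, median centring and the mean of rows could therefore not change this. The genes' median of 10.04 ran from 9.14, with low values raised to the array median (an alternative chosen after seeing the data), to 10.68 against the other wild type. Of 152 alternative values of single genes, 148 moved by less than 0.64, the SD over genes of the difference between the wild types, and the other 4 were those of Dntt, Ptcra and Bcl11b given in the text. Part of this count was fixed in advance. Each gene had 1 row, so the mean of its rows changed nothing. Median centring shifts all genes alike, by at most 0.17, and could not reach that SD. In the circZbtb20 comparison 2 genes, Satb1 and Bcl11b, were lower against the other wild type, and 0 at a size of 2 log2 units, where 0 were also higher between the wild types. That size called 2795 genes for Nr4a1, 2038 for circZbtb20 and 204 between the wild types, since it asks for more. Centring on array medians moved the median of all genes by 0.17 in the Nr4a1 comparison. Of 374 alternative list medians 8 moved by more than that SD, with the cause not tested. No paired analysis was possible because each group has 1 array. Leaving out a replicate was not possible for the same reason. Differences between values near the array medians are poorly measured.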

Other observations

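Relatives of the listed genes did not follow them. Of 10 measured, 0 were higher and 4 lower in the Nr4a1 knockout, beside 31.9% and 20.8% of all genes past the filter. The list's median was -0.30, or -1.90 over those past the filter, some of which passed only through their higher wild-type value. Itm2b and Itm2c, of the Itm2a family, were at 17.34 against 19.78 and at 9.83 against 13.65, while Itm2a was higher by 12.58. Bcl11a, the relative of Bcl11b that B cell precursors use, stood at 3.39 and 2.82, below both array medians. The aquaporin genes Aqp1 and Aqp3 differed by -3.61 and -1.36, where Aqp11 differed by 12.45. Tcf7l2 and Tcf7l1, relatives of Lef1, differed by 0.90 and -0.58 and were not called.

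The genes beside the 8 on the chromosome were read after the values were seen. On either side the nearest protein-coding gene with a row was taken from the RefSeq gene order of GRCm38.p6, without the listed genes. Of these 16 genes 11 passed the filter on low values and 5 did not. Of the 11 that passed, 4 were higher and 1 lower in the Nr4a1 comparison, a share near the 52.7% called among all genes past the filter. Gpr174, a lymphocyte lysophospholipid receptor gene beside Itm2a, was at 10.05 against 4.50, a difference of 5.55. Ostc beside Lef1 differed by 3.08 and Clns1a beside Aqp11 by 2.96. Traf6 beside Rag2 differed by -0.21, and Blnk, a B cell adaptor gene beside Dntt, by -1.84.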
